A study of Homo sapiens with 4 samples.

Results

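The short arm of chromosome 8 (8p) is described here through its expressed genes, measured by RNA-seq in 4 human lines that derive from acute lymphoblastic leukemia of B-cell precursors. The genes were chosen by position and level. Of 23165 genes found in both deposited tables, 314 had a locus on 8p that ended at or before 43.1 Mb (hg19), and 123 of these exceeded a mean of 5 CPM over the 4 lines. CPM is the count of a gene scaled to a fixed total count of its library, so that libraries of unequal depth can be compared. Of these, 8 were left out by symbol (ARHGEF10, BLK, FDFT1, TNFRSF10B, PPP2R2A, FZD3, PPP2CB and GPR124), which left 115 genes. The other 191 genes of the arm did not pass the limit on level, and no value is given for them beyond the 2 nearest it.

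RS4;11 and SEM are lines of precursor leukemia that carry the translocation t(4;11), in which the MLL gene (KMT2A) is rearranged. NALM6 and REH are precursor leukemia lines without it and formed the control group. All 4 were cultured without treatment in RPMI with bovine serum, and 1 library was made from each. Each line is a single established culture, so a value that sets 1 line apart has no replicate behind it.

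Genes of 1 chromosome arm lie on the same stretch of DNA, so a gain or loss of the arm changes the dose of all of them together. Leukemia cells often gain or lose whole arms. 8p carries genes of many unrelated pathways: the receptor FGFR1, the acetyltransferase KAT6A, the helicase WRN, the centrosome protein PCM1 and a series of enzymes, transporters and ubiquitin ligases. It is best known in blood cancers for fusions that involve FGFR1, PCM1 or KAT6A. The DNA copy number of the lines is not analysed here.

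Summed gene counts ran from 33620574 in SEM to 84212986 in REH, with 51872617 in RS4;11 and 44849858 in NALM6. The median count of the 115 genes was lowest in RS4;11, at 896, against 1493 in SEM, 1736 in NALM6 and 3306 in REH. A single gene with 896 counts has a 95% Poisson interval of 838 to 957, or 6.44% below to 6.77% above. That interval is for 1 such gene and not for the median over the 115 genes. A level that rests on 3 counts, taken as the floor, is between 0.0356 CPM (REH) and 0.0892 CPM (SEM). These limits cover counting error only. The 5 B-precursor markers reported (CD79A, CD79B, PAX5, VPREB1 and EBF1) summed to between 740 CPM, in SEM, and 1480 CPM, in REH. Single markers were low, with VPREB1 at 0.226 CPM in REH and CD79B at 9.73 CPM in SEM. The 4 T and NK cell markers summed to at most 0.0446 CPM (NALM6) and were at 0 counts in the other lines. Myeloid markers summed to between 3.59 and 34.5 CPM, the latter in REH, erythroid markers to at most 0.285 CPM, and stromal and epithelial markers to at most 4.16 CPM.

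The 115 genes stood about 2-fold lower in RS4;11 than in the other lines. Together they took 0.345% of the counts of RS4;11, against 0.731% in SEM, 0.713% in NALM6 and 0.764% in REH. The first of these shares is low and the other 3 lie close to each other. In bulk RNA, fewer cells that express a gene and less RNA per cell cannot be told apart. For each gene the level of a line was set against the median of the other 3 as a log2 difference, log2((CPM + 1)/(median CPM of the others + 1)). The median log2 difference over the 115 genes was -0.98 in RS4;11, with a middle range (quartiles) of -1.28 to -0.75. It was 0.28 in SEM, 0.19 in NALM6 and 0.12 in REH. Over all 10614 genes above 5 CPM the same medians were -0.06, -0.03, 0.08 and 0.03. The choice of this arm rests on these differences, so they are a description and carry no test.

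Read gene by gene, RS4;11 was more than 1.5-fold below the median of the other 3 lines for 94 of the 115 genes (81.7%). Of all genes above 5 CPM, 17.0% were that low in it. It was the lowest of the 4 lines for 95 of the 115 genes (82.6%, against 24.4% of all genes), and the highest for 1 (0.87%, against 17.3%). SEM was the highest line for 44 (38.3%, against 23.0% of all genes), NALM6 for 27 (23.5%, against 30.2%) and REH for 43 (37.4%, against 29.6%). For 59 of the 115 genes (51.3%) the plain ratio of RS4;11 to the median of the others lay between 0.4 and 0.6, where 7.44% of all genes lay. For the other lines the counts more than 1.5-fold below were 12 in SEM (10.4%, against 17.8% of all genes), 13 in NALM6 (11.3%, against 13.7%) and 11 in REH (9.57%, against 15.4%). Counts more than 1.5-fold above were 5 in RS4;11 (TNKS, TUSC3, HR, ANK1 and ADAM28, 4.35%, against 10.6%), 30 in SEM (26.1%, against 12.7%), 26 in NALM6 (22.6%, against 17.9%) and 29 in REH (25.2%, against 20.8%). The medians and counts of SEM, NALM6 and REH are each read against a set that holds RS4;11. Without it the medians were 0.03 in SEM, -0.055 in NALM6 and -0.05 in REH. The counts more than 1.5-fold above were then 16 in SEM, 11 in NALM6 and 20 in REH. Those more than 1.5-fold below were 19, 24 and 24 in the same order. No share of all genes is given for this setting. Taken 2 lines at a time over the same genes, the median log2 difference of RS4;11 was -1.001 from SEM, -0.98 from NALM6 and -1.07 from REH. Between the other lines it was 0.10 for SEM minus NALM6, -0.002 for SEM minus REH and 0.01 for NALM6 minus REH.

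**Figure D1:**
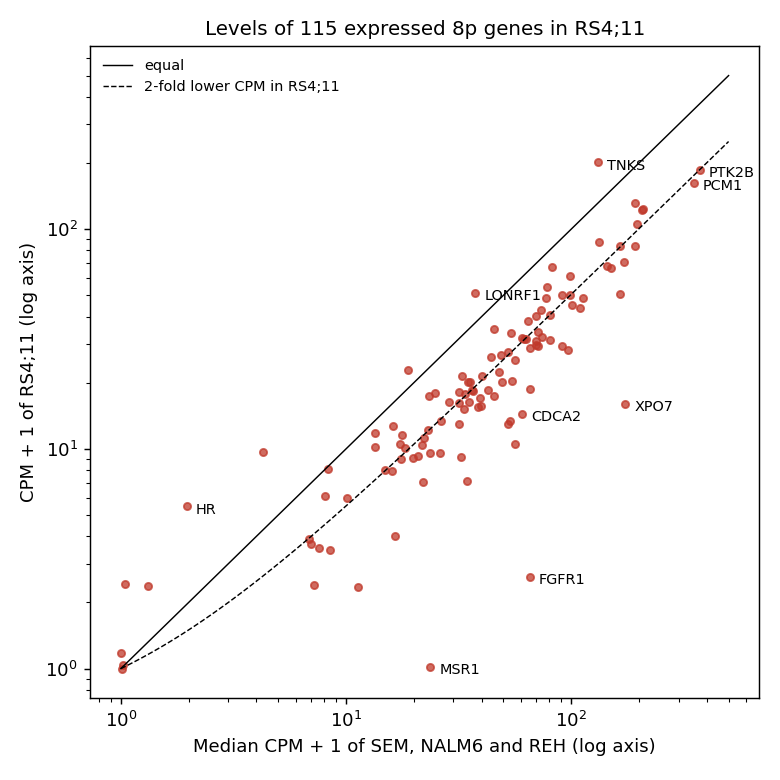
Level of each of the 115 8p genes in RS4;11 (vertical, CPM + 1, log axis) against the median of SEM, NALM6 and REH (horizontal, CPM + 1, log axis), where the solid line marks equal levels and the dashed line a 2-fold lower CPM in RS4;11. Most points lie along the dashed line over the whole range of levels, with TNKS and LONRF1 above the solid line and XPO7, FGFR1 and MSR1 far below the dashed one.

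The genes that varied least among SEM, NALM6 and REH showed the difference most evenly. PCM1, a scaffold of the particles around the centrosome, had 349 CPM in SEM, 323 in NALM6 and 349 in REH, and 162 in RS4;11. AGPAT5, an acyltransferase of phospholipid synthesis, had 149, 149 and 162 CPM in the same 3 lines and 65.7 in the fourth. MCPH1, a DNA damage response and chromosome condensation protein, had 35.5, 34.8 and 38.1 CPM against 17.3. In each of these genes SEM, NALM6 and REH lay close together, and the remaining line was below all 3. The general transcription factor subunit GTF2E2 had 30.5, 32.9 and 30.6 CPM against 15.2. In all, 48 of the 115 genes stayed within 1.5-fold of each other in SEM, NALM6 and REH. RS4;11 was the lowest line for all 48, with a median log2 difference of -0.999 and quartiles of -1.23 and -0.92. Of the 4214 genes of the genome with the same evenness it was the lowest for 32.6%, with a median of -0.04. Their quartiles were -0.225 and 0.14, against -0.38 and 0.21 over all 10614 genes above 5 CPM. A narrower spread is thus common to even genes and not particular to the arm. The 67 genes that differed more than 1.5-fold among the other 3 lines had a median of -0.88 and wider quartiles (-1.28 and -0.50).

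The difference ran along the whole arm. In gene order from the telomere, the median log2 difference of RS4;11 was -0.82 over the first 28 genes (RPL23AP53 to PCM1), -1.19 over the next 29 (ASAH1 to CDCA2), -0.97 over the 29 after these (BNIP3L to RAB11FIP1) and -0.99 over the last 29 (EIF4EBP1 to HGSNAT). It was the lowest line for 17, 24, 26 and 28 genes of these blocks. The block next to the telomere thus held the most exceptions. In steps of 5 Mb its median stayed between -1.25 and -0.68, although only 1 of the 9 steps held at least 20 genes. The step with the lowest median, from ATP6V1B2 to ADAM28, held 22 genes. The block medians of SEM, NALM6 and REH lay between 0.00 and 0.38.

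**Figure D2:**
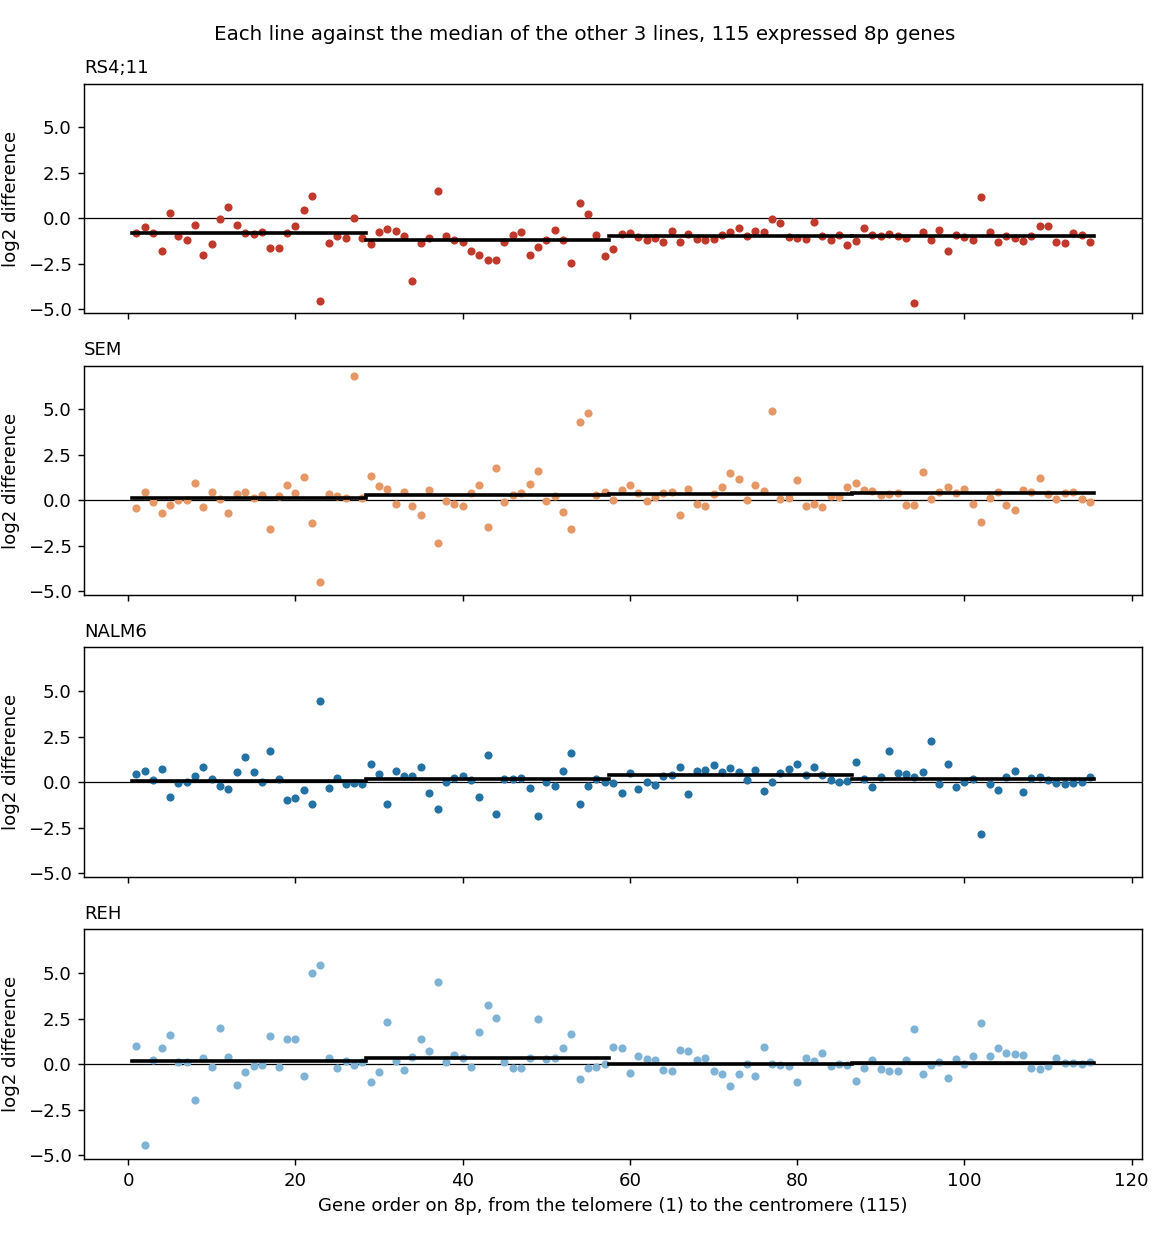
Log2 difference of each line from the median of the other 3 (vertical) for the 115 8p genes in order from the telomere to the centromere (horizontal), with 1 panel per line, where points are genes and black bars are medians of 4 blocks of genes. The bars of RS4;11 lie between -1.19 and -0.82 along the arm, and those of the other lines between 0.00 and 0.38.

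Single genes at the ends of the arm show the levels behind these medians. RPL23AP53, a ribosomal protein pseudogene at the telomeric end (chromosome 8, 158345 to 197339, hg19), had 19.2 CPM in RS4;11 against 24.5 in SEM, 33.9 in NALM6 and 49.5 in REH. Its reads may be shared with the parent gene, so its level is uncertain. HGSNAT, a lysosomal enzyme of heparan sulfate breakdown and the last gene of the set (42995592 to 43057970), had 12.0 CPM in the same line against 28.7, 35.6 and 30.7. RS4;11 was the lowest line at both ends. The 20 genes nearest the centromere (PLEKHA2 to HGSNAT) had a median of -0.995 in it, and 19 of them were lowest there. Across the centromere the sign changed: the first 20 expressed genes of the long arm (8q) had a median log2 difference of 0.64 in the same line, and 19 of the 20 were highest there.

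Over 225 expressed genes of 8q the median log2 difference was 0.53 in RS4;11, 0.00 in SEM, -0.20 in NALM6 and -0.24 in REH. The first of these was more than 1.5-fold above the others for 93 of them (41.3%, against 10.6% of all genes) and the highest line for 159 (70.7%, against 17.3% of all genes). These 225 genes took 3.83% of the counts in RS4;11 against 2.72% in SEM, 2.43% in NALM6 and 2.35% in REH. Among 41 chromosome arms with at least 20 expressed genes, 8p had the lowest median of RS4;11 and 8q the highest. With the 8 genes left out above included, the median of 8p was -0.99 over 123 genes. The arm with the next lowest median was 7p, at -0.82, followed by 21q at -0.15. In SEM 8p had the highest median of the 41 arms, at 0.28, again with RS4;11 among its reference lines. It ranked 38 of 41 from the lowest in NALM6 and 37 of 41 in REH.

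**Figure D3:**
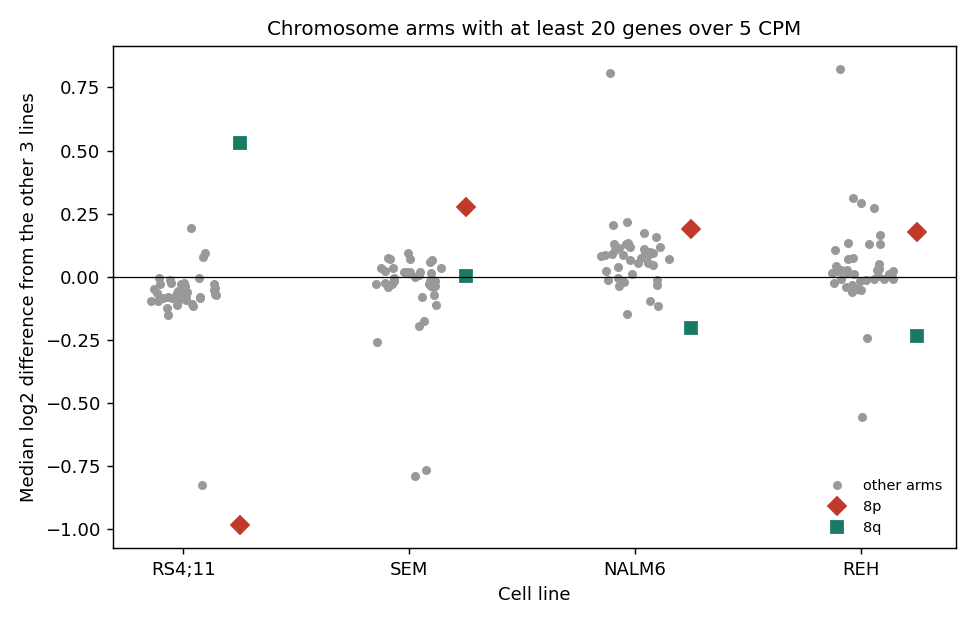
Median log2 difference of each line from the other 3 (vertical) for every chromosome arm with at least 20 genes over 5 CPM, where grey points are arms, the red diamond is 8p (123 genes) and the green square 8q (225 genes). In RS4;11 8p lies lowest at -0.99 and 8q highest at 0.53.

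The 115 genes were grouped by function into 9 lists, which hold 106 of them. In 8 of the 9 groups the median log2 difference of RS4;11 lay between -1.13 and -0.86. The exception was the list for ubiquitin and proteolysis, at -0.48. The lists were made by hand, and this one holds MSR1, which is no protease. The proteases CTSB (log2 difference -1.63) and BMP1 (-1.18) stand in other lists. The -0.48 thus describes this list and not all genes of that kind on the arm. In that group 4 of 9 genes were more than 1.5-fold below the other lines and 1 was above. The groups are described in turn, some genes with their level in all lines and the others by the range of their log2 differences in RS4;11.

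**Figure D4:**
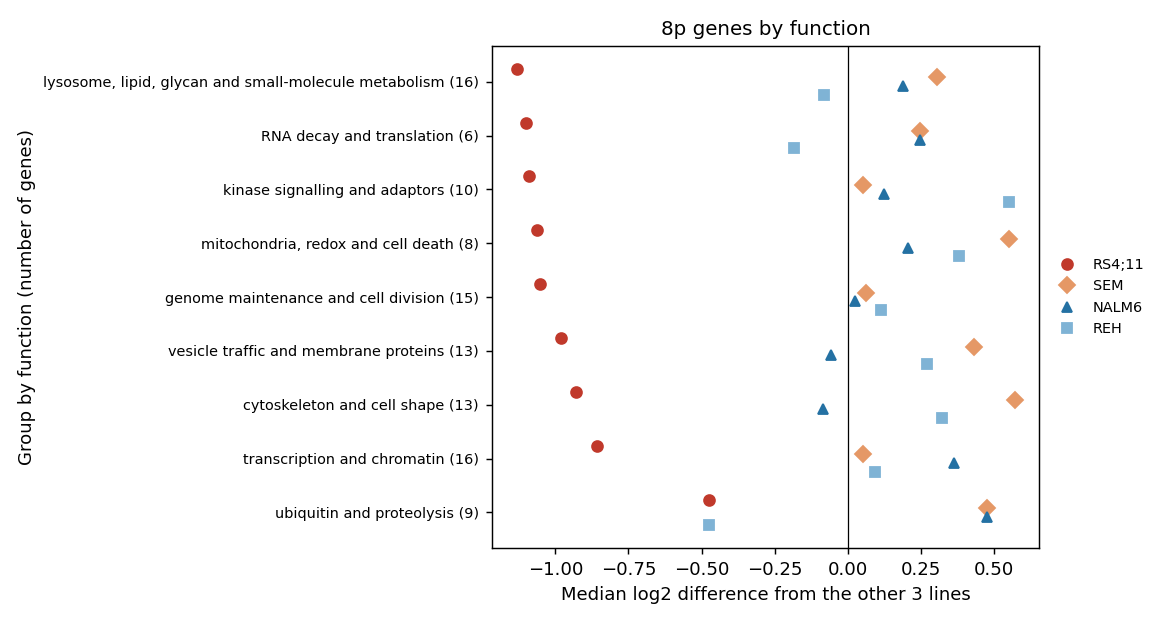
Median log2 difference of each line from the other 3 (horizontal) for 8p genes grouped by function (vertical, with the number of genes), where each symbol is 1 line, spread slightly in height so that symbols do not hide each other. RS4;11 lies between -1.13 and -0.86 for 8 groups and at -0.48 for ubiquitin and proteolysis, while the other lines lie between -0.48 and 0.57.

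Among genes of transcription and chromatin, 13 of 16 were more than 1.5-fold lower in RS4;11 (median -0.86). KAT6A, a histone acetyltransferase also called MOZ (chromosome 8, 41786997 to 41909505, hg19), had 121 CPM in that line, 205 in SEM, 189.8 in NALM6 and 255 in REH. KIAA1967 (CCAR2), an inhibitor of the deacetylase SIRT1, had 122, 233, 207 and 178 CPM in the same order. RS4;11 was lowest for both, outside the range of the other lines. ZNF395, a zinc finger protein, was low in both lines with the translocation, at 70.1 CPM in RS4;11 and 98.1 in SEM against 174 and 171. WHSC1L1 (NSD3), a histone methyltransferase, had 66.9 CPM in that line against 120.4, 165 and 143. ASH2L, a shared subunit of the MLL and SET1 methyltransferase complexes, differed less, with 53.6 CPM against 102, 77.3 and 67.6 (log2 difference -0.52). HR, the hairless corepressor, was the only gene of the group more than 1.5-fold above the median of the others in that line: it had 4.47 CPM there and 44.1 in REH, but 0.0892 in SEM and 0.959 in NALM6. SOX7, a SOX-family factor, was highest in NALM6 at 66.4 CPM, against 19.1, 34.4 and 25.2 in RS4;11, SEM and REH. THAP1, a zinc finger transcription factor, had 9.21 CPM in RS4;11, 14.8 in SEM, 12.5 in NALM6 and 11.5 in REH (log2 difference -0.40). The group's members not given by line (INTS10, POLR3D, ELP3, INTS9, HMBOX1, MAK16 and BRF2) had log2 differences in that line from -1.32 to -0.67.

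For genome maintenance and cell division, 12 of 15 genes were more than 1.5-fold lower in RS4;11 (median -1.05). TNKS, the poly-ADP-ribosylating enzyme tankyrase (9413445 to 9639856), went the other way and was the only gene of the 115 that was highest in that line. It had 200.2 CPM there, 105 in SEM, 130.2 in NALM6 and 171 in REH (log2 difference 0.62). WRN, the helicase mutated in Werner syndrome, was lowest in that line but close to REH, with 66.5 CPM against 81.1, 109.5 and 77.6. CDCA2, which directs protein phosphatase 1 to mitotic chromatin, had 13.5 CPM in that line against 82.0, 58.9 and 59.5, a larger gap than most (log2 difference -2.06). The mitotic kinase PBK had 28.4 CPM against 73.8, 70.4 and 56.4. CHMP7, an ESCRT protein that takes part in sealing the nuclear envelope, had 17.5 CPM against 40.9, 41.6 and 50.5. GINS4, a subunit of the replicative helicase, had 30.6 CPM against 95.7, 61.9 and 62.2. These genes of dividing cells thus showed RS4;11 apart from 3 lines that differed less among themselves. The DNA glycosylase NEIL2 was low in both lines with the translocation, with 6.05 CPM in RS4;11 and 6.42 in SEM against 23.5 and 20.9 in NALM6 and REH. TEX15, known from male germ cells, was counted in SEM at 29.2 CPM and was at 0 counts in RS4;11 and NALM6 and at 0.0119 CPM, under the floor, in REH. Remaining members (PINX1, REEP4, ESCO2, TTI2 and POLB) had log2 differences in that line from -1.12 to -0.85.

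All 6 genes of RNA decay and translation were more than 1.5-fold lower in RS4;11, and it was the lowest line for each (median -1.10). CNOT7, a deadenylase of the CCR4-NOT complex, had 82.8 CPM against 164, 165 and 141 in SEM, NALM6 and REH. XPO7, a nuclear transport receptor (21777180 to 21864096), had 15.02 CPM against 137, 173 and 180.4. Its log2 difference of -3.44 was the most negative among the genes that were even in the other 3 lines. EIF4EBP1, a repressor of cap-dependent translation, was low in REH as well, with 28.9 CPM in RS4;11 and 35.3 in REH against 68.5 in SEM and 77.2 in NALM6. The rest of the list (ERI1, R3HCC1 and LSM1) had log2 differences in that line from -1.38 to -0.61.

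Of kinase signalling genes, 9 of 10 were more than 1.5-fold lower in RS4;11 (median -1.09). The list also holds BMP1, a secreted metalloprotease, and EXTL3, a glycosyltransferase. FGFR1, a receptor tyrosine kinase (38268656 to 38326352), had 1.62 CPM in that line, 53.0 in SEM, 64.6 in NALM6 and 205 in REH. Its log2 difference of -4.65 in that line was the most negative of the 115 genes at the pseudocount of 1. At a pseudocount of 0.25 it was -5.12, behind MSR1 at -6.41, and without SEM it was -5.70. REH stood well above SEM and NALM6 too. PTK2B, a cytoplasmic tyrosine kinase of the focal adhesion kinase family, had 185 CPM against 371, 284 and 385. IKBKB, the kinase that releases NF-kappa-B from its inhibitor, had 39.6 CPM against 66.0, 79.4 and 101. For both RS4;11 was the lowest line. PLEKHA2, a phosphoinositide-binding adaptor, was high in NALM6 at 317 CPM, with 30.0 in RS4;11, 69.0 in SEM and 66.2 in REH. PPP1R3B, a glycogen-targeting subunit of protein phosphatase 1, was the gene of this group that did not pass the fold: it had 7.08, 7.32 and 6.13 CPM in that line, SEM and NALM6 and 31.3 in REH. The other listed genes (MFHAS1, MTMR9, BMP1, PPP3CC and EXTL3) had log2 differences in that line from -2.02 to -0.74.

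Genes of the cytoskeleton and cell shape were lower in RS4;11 by more than 1.5-fold in 11 of 13 cases (median -0.93). HOOK3, which links cargo to microtubule motors, had 42.6 CPM in that line against 134, 103 and 109. DPYSL2, a tubulin-binding protein, had 105 CPM against 194, 130.3 and 238. PSD3, an exchange factor for ARF6, was highest in REH at 429 CPM, against 86.4 in RS4;11, 132 in SEM and 57.8 in NALM6. REH was also highest for SORBS3 (vinexin), at 118 CPM against 6.13, 11.3 and 33.4 in RS4;11, SEM and NALM6, and for the LIM protein PDLIM2, at 18.7 CPM against 1.35, 10.4 and 2.36. ANK1, the ankyrin of red cell membranes, was the 1 gene of this group more than 1.5-fold above the median of the others in that line, at 8.69 CPM, with 3.27 in SEM, 0.357 in NALM6 and 19.0 in REH. DOCK5, an exchange factor for RAC, was counted mainly in SEM: it had 26.7 CPM there, 0.173 in RS4;11 and 0 counts in NALM6 and REH. TACC1, a centrosome protein, was also highest in SEM, at 127 CPM against 37.3, 63.4 and 42.7 in RS4;11, NALM6 and REH. Its further members (FAM160B2, BIN3, RHOBTB2, KIF13B and DCTN6) had log2 differences in that line from -2.04 to -0.93.

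Of the genes of vesicle traffic and membrane proteins, 12 of 13 were more than 1.5-fold lower in RS4;11 (median -0.98). TMEM66 (SARAF), a regulator of store-operated calcium entry, had 131 CPM in that line and 131 in REH against 296 in SEM and 192 in NALM6. Its lowest 2 lines differed by little. LEPROTL1, a membrane protein that shares a Cuffdiff locus with TMEM66 and DCTN6, had its lowest level in REH, at 30.8 CPM against 42.0 in RS4;11, 119 in SEM and 72.4 in NALM6. ATP6V1B2, a subunit of the proton pump of lysosomes, had 49.2 CPM in that line against 108, 98.2 and 77.5. The group's further genes (CLN8, ZDHHC2, VPS37A, UBXN8, ERLIN2, RAB11FIP1, TM2D2, GOLGA7, AP3M2 and RNF170) had log2 differences in that line from -1.82 to -0.62.

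In the group of lysosomal, lipid, glycan and small-molecule metabolism, 13 of 16 genes were more than 1.5-fold lower in RS4;11 (median -1.13). ENTPD4, a nucleotidase of the Golgi and lysosomes, had 82.9 CPM in that line against 123, 190.2 and 226. The lysosomal protease CTSB had 28.3 CPM against 93.9, 89.8 and 78.8. DDHD2, a phospholipase, was highest in NALM6 at 229 CPM, with 49.2 in RS4;11, 90.3 in SEM and 70.2 in REH. A pair of genes of this group were counted mainly in 1 line. SLC7A2, a transporter of basic amino acids, had 114 CPM in SEM, 0 counts in REH, and 0.0386 and 0.0223 CPM, both under the floor, in RS4;11 and NALM6. TUSC3, a subunit of the oligosaccharyltransferase, had 32.4 CPM in REH, 1.43 in RS4;11, and 0.0297 and 0.0446, under the floor, in SEM and NALM6. SLC20A2, a phosphate transporter, had 16.4 CPM in that line, 18.5 in REH, 22.3 in NALM6 and 44.4 in SEM, so RS4;11 lay just below REH. The others of the group (ASAH1, NUDT18, SLC39A14, FUT10, PROSC, PPAPDC1B, AGPAT6 and FNTA) had log2 differences in that line from -1.78 to -0.80.

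Of the genes of mitochondria, redox control and cell death, 7 of 8 were more than 1.5-fold lower in RS4;11 (median -1.06). BNIP3L (NIX), a receptor for the removal of mitochondria, had 49.6 CPM in that line against 164, 160.3 and 305. VDAC3, a channel of the outer mitochondrial membrane, had 47.5 CPM against 117, 77.7 and 112. GSR, glutathione reductase, had 60.0 CPM in that line and a near level of 61.8 in REH, against 113 in SEM and 97.5 in NALM6. RS4;11 was lowest for these 3 genes, by a small margin below REH in the last. SLC25A37 (mitoferrin), the iron importer of mitochondria, was low in both lines with the translocation, with 9.54 CPM in RS4;11 and 17.9 in SEM against 55.6 and 58.1. TNFRSF10D, a decoy receptor for the death ligand TRAIL, had 1.41 CPM in that line and 1.00 in NALM6 against 6.19 in SEM and 12.2 in REH. MSRA, which repairs oxidised methionine, was lowest in REH, at 6.21 CPM against 11.8, 15.2 and 18.1. Remaining genes of this list (NAT1 and BAG4) had log2 differences in that line from -0.91 to -0.75.

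In the group of ubiquitin ligases and proteases RS4;11 was the lowest line for 4 of 9 genes. LONRF1, a RING finger protein, was higher in both lines with the translocation, with 50.1 CPM in RS4;11 and 90.7 in SEM against 36.4 in NALM6 and 31.2 in REH. FBXO25, a substrate receptor of a ubiquitin ligase near the telomere (356808 to 419875), had 0.131 CPM in REH against 16.9 in RS4;11, 23.9 in SEM and 26.4 in NALM6, the most negative log2 difference of REH on the arm (-4.46). RNF122, a RING finger protein, had almost the same level in RS4;11 and SEM, at 10.8 and 10.7 CPM, with 20.2 in NALM6 and 12.5 in REH. MSR1, the macrophage scavenger receptor, which stands in this list although it is no protease, was under the floor in both lines with the translocation, with 0.0193 CPM in RS4;11 and 0.0595 in SEM, and had 22.7 CPM in NALM6 and 45.5 in REH. The metalloprotease gene ADAM28 had 24.9 CPM in SEM and 1.37 in RS4;11 against 0.0446, under the floor, in NALM6 and 0.321 in REH. ADAM9, a membrane protease, and KCTD9, an adaptor of cullin ligases, followed the arm: ADAM9 had 17.8 CPM in that line against 64.5, 78.2 and 38.1, and KCTD9 had 30.8 CPM against 64.1, 59.5 and 52.6. The rest of these genes (KBTBD11 and TRIM35) had log2 differences in that line from -0.81 to 0.27.

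The 9 genes outside the lists had a median of -0.82 in RS4;11, and 7 of them were more than 1.5-fold lower there. SGK223, a pseudokinase, was lowest in REH at 10.7 CPM, against 34.3, 66.8 and 44.3. SGK196, a kinase that acts on a glycan, had the most even levels of the low genes, at 6.19, 6.02 and 5.97 CPM in SEM, NALM6 and REH and 2.70 in RS4;11. FAM86B1, which belongs to a family of near-identical copies so that its counts are uncertain, had 2.89 CPM in that line, 5.86 in SEM, 2.43 in NALM6 and 8.98 in REH. With a mean of 5.04 CPM it was 1 of the 2 genes just inside the limit of 5 CPM. The other was NUDT18, a nucleotide hydrolase of the metabolism list, at 5.07. Just outside were KIAA1456, at a mean of 4.88 CPM, and ZNF596, at 4.39 CPM. Other members (ERICH1, LOC100506990, C8orf58, CCDC25 and C8orf40) had log2 differences in that line from -1.30 to -0.40.

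**Figure D5:**
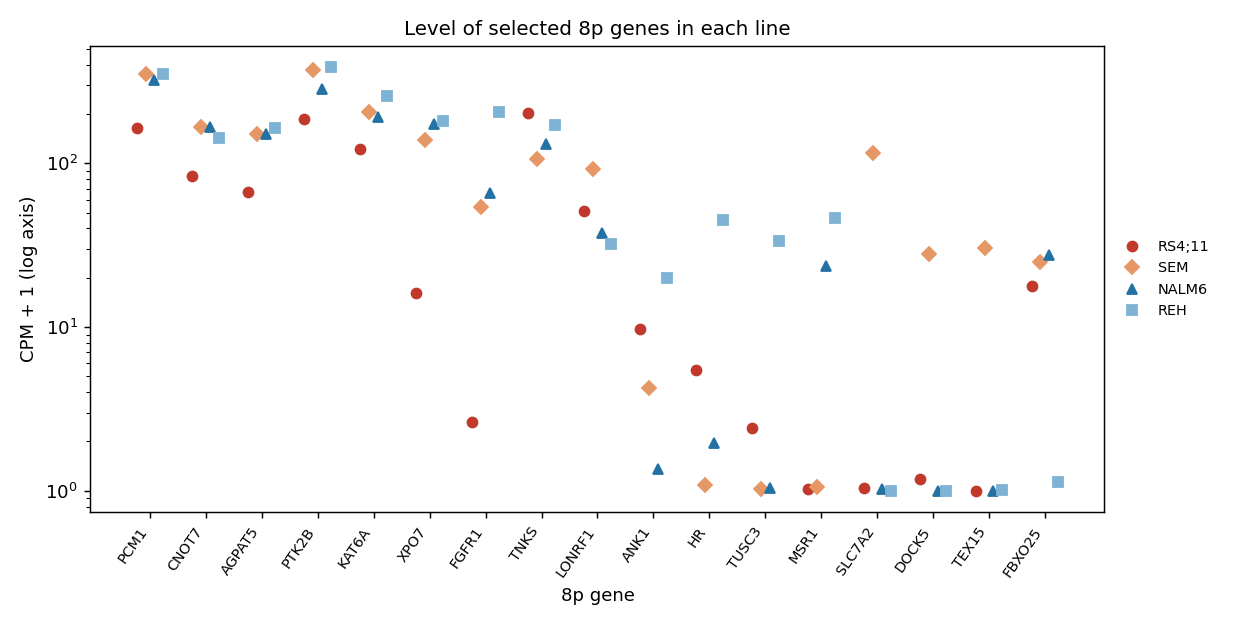
Level of 17 8p genes (horizontal) in each line (vertical, CPM + 1, log axis), where each symbol is 1 line, spread slightly sideways. RS4;11 lies below the other 3 lines from PCM1 to FGFR1 and above them at TNKS, while the genes from HR to TEX15 are counted mainly in 1 or 2 lines.

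On levels per length, the authors' deposited Cuffdiff table gives FPKM (fragments scaled to gene length and to depth) for the 2 groups of lines, with no value per line. With t(4;11) the 5 highest of the 115 genes in that table were TMEM66, at 117 FPKM with t(4;11) and 82.6 in the control group, PTK2B at 72.7 and 82.1, EIF4EBP1 at 70.8 and 76.7, VDAC3 at 60.3 and 65.3, and CNOT7 at 53.3 and 62.1. A group value joins a line in which these genes were low (RS4;11) with one in which they were not (SEM).

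The comparison that the labels give, t(4;11) against control, sets RS4;11 and SEM together against NALM6 and REH. By edgeR's quasi-likelihood test, fitted on all genes, 112 of the 115 genes were tested and 0 passed an adjusted p of 0.05 (smallest adjusted p of edgeR 0.234). Over all 13844 genes tested the call rate was 0.0%. At an unadjusted p under 0.05 this test gave 2 genes higher (LONRF1 and ADAM28, 1.79%, against 6.18% of all genes) and 7 lower (6.25%, against 5.87%). DESeq2 on the same counts called 4 higher (ADAM28, DOCK5, SLC7A2 and TEX15) and 7 lower after adjustment (3.48% and 6.09%, against 5.85% and 5.74% of all genes). In the order given, the 4 higher genes had 24.9, 26.7, 114 and 29.2 CPM in SEM. In RS4;11, the other line with t(4;11), they had 1.37, 0.17, 0.0386 and 0 CPM. These 4 calls thus rest mainly on 1 library. The edgeR exact test called 0 higher (background 1.91%) and 1 lower (MSR1, background 1.03%). In these fits of all 4 lines the share of genes called lower was near the background. The median log2 fold change of the 112 genes was -0.34, with 87 of them negative (77.7%, against 51.2% of all genes tested, whose median was -0.02). The sign rests on RS4;11: the median was 0.13 without it and -0.99 without SEM. Both of these fits leave 1 line in a group, so no conclusion is drawn from their calls. The fit without SEM also repeats the difference on which the choice of this arm rests. Both t(4;11) lines lay below both controls for 31 of the 115 genes (27.0%, against 28.6% of all genes above 5 CPM) and above both for 4 (LONRF1, ADAM28, SLC7A2 and DOCK5, 3.48%, against 19.9%). For SLC7A2 the levels of all lines but SEM are under the floor, so their order is not resolved.

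MSR1 had the smallest p of the arm, at -9.66 on the log2 scale (SE 0.93, adjusted p of edgeR 0.234). It was called lower in the authors' deposited DESeq table (adjusted p = 5.43e-08) but not in their deposited Cuffdiff table (q = 0.436). Its fold rests on 3 counts over the libraries of both translocated lines against 4848 over both controls, a ratio of controls to translocated lines of 1070 (95% interval 366 to 5193). The interval covers counting error only and not the spread between lines. The fitted fold, and with it the SE, depends on the prior count. SLC25A37 was at -1.95 on the log2 scale (SE 0.39, adjusted p of edgeR 0.32) and was also called lower in the authors' deposited DESeq table (adjusted p = 0.0233). NEIL2 had -1.73 (SE 0.36, adjusted p of edgeR 0.329), ZNF395 -0.93 (SE 0.22, adjusted p of edgeR 0.347) and SORBS3 -3.02 (SE 0.80, adjusted p of edgeR 0.37). In these 5 genes RS4;11 and SEM both lay below both controls. The other 2 with an unadjusted p under 0.05 and a lower level were FAM160B2, at -1.30 (SE 0.36, adjusted p of edgeR 0.377), and ENTPD4, at -0.92 (SE 0.26, adjusted p of edgeR 0.381). In the other direction, where SGK223, SLC20A2 and TACC1 followed with unadjusted p-values above 0.05, LONRF1 was at 1.16 on the log2 scale (SE 0.36, adjusted p of edgeR 0.393) and ADAM28 6.20 (SE 2.10, adjusted p of edgeR 0.408).

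Of all 115 genes, the authors' deposited DESeq table called 2 lower and none higher, where 0.631% and 0.931% of all genes tested there were called lower and higher. The authors' deposited Cuffdiff table called 1 higher (DOCK5, q = 0.00418, listed at 0 in the control group) and 1 lower (PLEKHA2, q = 0.0346), where 1.22% and 1.12% were called. PLEKHA2 was high in NALM6 alone, as given above, and had an edgeR log2 fold change of -1.85 (SE 0.93, adjusted p of edgeR 0.52). DOCK5, TEX15 and SLC7A2, each counted mainly in SEM, were the 3 genes that did not pass edgeR's filter on low counts.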

How the data were processed

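RNA-seq libraries of 4 lines, 1 per line, were read as gene counts from the authors' deposited DESeq table, whose header names them HTSeq counts. Per the submitters' processing notes the build was hg19, and TopHat2 2.0.4, HTSeq, DESeq and Cuffdiff are among the tools. The same table of the authors gives normalized counts (counts divided by size factors, a signal per line and group), a fold (the ratio of control to t(4;11), per the file headers) and p-values. The authors' deposited Cuffdiff table gives FPKM per group, the log2 fold of control over t(4;11) and q-values. Signs were turned here so that positive is higher with t(4;11). The sources used here give no aligner or strand settings. Per the labels' protocols the kit was TruSeq. That name alone does not show whether strand was marked, so reads of antisense and overlapping genes may not be told apart.

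Counts were divided by their column sum to give CPM. Genes were placed by the loci of the deposited Cuffdiff table (hg19, start counted from 1); 11 of the 115 genes share 5 loci. The 115 genes and the 9 function lists were chosen with earlier results of these data known. Line differences used a pseudocount of 1. Groups were compared with edgeR 4.0.16 (quasi-likelihood, TMM, filterByExpr, Benjamini-Hochberg over all genes tested), with DESeq2 1.42.0 and edgeR's exact test as alternatives. The SE given with a fold was worked back from the test, as the absolute log2 fold change over the square root of its F statistic. The code was tested on simulated data. Replicates of a group are different lines, so p-values measure the spread between lines. Genes were named by rule: per line the 5 lowest and 5 highest differences outside the range of the other lines, the 5 smallest p in each direction, genes called in a deposited table, the 3 highest CPM of each function list, the 5 highest FPKM, and the genes at the 5 CPM limit and at the ends of the arm. Others in the text were chosen after their values were seen.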

Additional observations from a re-analysis of the deposited data

How the results depend on the processing

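The median log2 difference of RS4;11 on 8p kept its sign under every alternative run. It was -0.58 over 216 genes with no limit on level and lay between -1.05 and -0.89 under the others: edgeR's TMM scaling (-0.89), DESeq2's size factors (-0.89), limits of 1 (-0.93) and 20 CPM (-1.04), a pseudocount of 0.25 (-1.02), the mean of the other lines (-1.05) and leaving out 1 other line (-1.035 to -1.015). Putting back the genes left out by symbol (-0.99) and keeping only genes with a locus of their own (-0.998) were alternatives chosen after seeing the data. At a 2-fold limit 54 of 115 genes were below in RS4;11. Genes above in RS4;11 numbered 8 of 140 at 1 CPM, 1 of 82 at 20 CPM and 9 of 216 with no limit. Out of 115 genes they numbered 0 against the mean, 3 at a 2-fold limit and 0 to 4 leaving out a line. No share of all genes is given for these settings, so the counts have no background to be read against.

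The counts of the other lines are out of 82 genes at 20 CPM, 216 with no limit on level and 115 otherwise. No share of all genes is given for them either. For SEM, 7 were below at 20 CPM, 19 at the smaller fold limit, 7 at 2-fold and 9 to 19 leaving out a line. Above were 56 at the smaller fold limit, 13 at 2-fold and 16 to 45 leaving out a line. For NALM6 the count below was 4 at 20 CPM, 21 with no limit, 21 at the smaller fold limit, 7 at 2-fold and 14 to 24 leaving out a line, and that above was 44 at the smaller fold limit, 10 at 2-fold and 11 to 39. For REH the count below was 17 against the mean, 22 at the smaller fold limit, 5 at 2-fold and 7 to 24 leaving out a line, and that above was 17 at 20 CPM, 48 with no limit, 17 at 2-fold and 20 to 42. Leaving out a line, the medians ranged from 0.03 to 0.50 in SEM, from -0.055 to 0.388 in NALM6 and from -0.050 to 0.410 in REH; the last 2 turned negative without RS4;11.

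For t(4;11) against control, DESeq2 gave 5 higher calls (4.35%, against 8.2% of all genes) and 11 lower ones (9.57%, against 8.5%) before adjustment, at p under 0.05, and 4 and 7 after it. edgeR's exact test gave 1 higher unadjusted (0.893%, against 4.54%) and 1 lower adjusted (0.893%, against 1.03%). Without the filter on low counts edgeR gave 4 higher unadjusted (3.48%, against 4.85%). Leaving out a line, where the lone sample is assumed to vary like the other group, gave 0 to 6 higher and 2 to 20 lower. Each of these fits leaves 1 line in a group, so no conclusion is drawn from the counts. The largest count of lower genes came without SEM, where RS4;11 alone stands against the controls. That fit repeats the difference on which the choice of this arm rests, so a large count there was built in. Over the fits that leave out a line the median log2 fold change ran from -0.99, without SEM, to 0.13, without RS4;11. Without SEM the log2 fold changes of SLC20A2 (-0.19) and TACC1 (-0.38) turned negative, and without RS4;11 they were 1.22 and 1.35. Of 457 alternative line differences of named genes 0 reversed and 77 moved by more than 0.35, the median SD of log2 levels among SEM, NALM6 and REH over the 115 genes, such as MSR1 in RS4;11 (-4.54, and -6.41 at a pseudocount of 0.25). The 457 include settings that change only which genes are kept, and such settings cannot move the difference of a single gene. The named genes were also chosen as the most extreme of each line, so the 0 says little about how firm they are. Of 88 group fold changes 2 reversed. The cause was not tested. No paired analysis was possible because the replicate numbers only name different lines. With 1 library per line, depth limits single values most near the floor of 3 counts, and also for other genes with few counts. Genes under 100 counts numbered 9 in RS4;11, 3 in SEM, 8 in NALM6 and 5 in REH.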
